A study of Danio rerio with 15 samples.

Results

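The transition from day 3 to day 5 after acute kidney injury (AKI) in the adult zebrafish was followed here by comparing 3 kidney samples collected at 5 days post-injury (dpi) with 3 collected at 3 dpi, 6 of the 15 samples of the series. The deposited table lists 5686 genes, a part of the genome whose choice is not explained in the sources used here, so every share of all genes below is a share of listed genes. The 5685 that were above 0 in at least 3 of the 15 samples were tested, and the 5 dpi level was compared with the 3 dpi level for each. The series holds bulk polyA RNA sequencing of whole kidneys from the wild-type AB strain at 6 months of age, in 5 groups of 3 samples: uninjured, and 1, 3, 5 and 7 dpi. All injured fish had received gentamicin, an antibiotic that is toxic to the kidney tubule, by intraperitoneal injection, and the methods restrict later work to fish that passed protein in the urine on the first day. The uninjured kidneys are labelled as control samples, with no other treatment named. The labels do not say whether a sample was 1 fish or a pool, so the p-values below measure the spread between these samples.

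As background, the adult zebrafish kidney can form new nephrons after injury, which the mammalian kidney cannot. Renal progenitor cells (RPCs) that express the LIM homeobox factor lhx1a gather into aggregates, turn into epithelium, elongate and join the existing tubules. Wnt ligands and their Frizzled receptors act in these aggregates, and in the mouse embryo Wnt4 and Fgf8 act upstream of or together with Lhx1 in the forming nephron. The injured tubules also repair themselves, and in these cells the immediate-early and stress factors of the AP-1, ATF and EGR families are known to respond to injury. Renal interstitial cells (RICs) lie between the tubules, make collagens and other matrix, and are a source of prostaglandins. The zebrafish kidney is also the site of adult blood formation, so immune and blood cells make up much of the tissue. In whole-kidney samples, fewer cells of a type and less RNA per cell cannot be told apart.

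Levels are given as FPKM, fragments scaled to gene length and library size, and differences as log2(FPKM + 1) at 5 dpi minus that at 3 dpi, which understates the change of genes near 0. A gene was called where limma, fitted on all 15 samples, gave a Benjamini-Hochberg adjusted p below 0.05 over all genes tested. By this rule 174 genes (3.06%) passed, of which 101 were higher (1.78%) and 73 lower (1.28%) at 5 dpi, and 1103 genes had an unadjusted p below 0.05. The median difference over all genes was 0.11, with quartiles of -0.17 and 0.42, so a typical listed gene lay slightly above 0. The 3 samples at 5 dpi lay wholly above the 3 at 3 dpi for 18.4% of all genes and wholly below for 9.55%, and they did so for all 174 called genes. Fitted on the 6 samples at 3 and 5 dpi alone, limma called 4 genes (0.0704%), of which cxcl19 was higher (0.0176%, adjusted p = 0.0465) and egr4, fosl1a and DNAJA4 were lower (0.0528%, adjusted p = 0.0195, 0.0465 and 0.0465), while 1105 genes had an unadjusted p below 0.05. So nearly all of the calls needed the spread estimated from all 5 groups. The split of the calls moved with the scaling, from 58% higher on the deposited values to 29.7% after quantile normalization, with 38 higher and 90 lower, and to 33.2% with median-of-ratios scaling, with 67 higher and 135 lower. These scalings brought the median of all genes to 0.01 and 0.02. Quantile normalization kept 35 of the 101 genes called higher and 62 of the 73 called lower. Leaving out 1 sample changed the count as well, to 74 without 3 dpi replicate 1, 117 without 3 dpi replicate 2, 76 without 3 dpi replicate 3, 121 without 5 dpi replicate 1, 62 without 5 dpi replicate 2 and 75 without 5 dpi replicate 3. Of the 174 calls, 36 were kept in all 6 of these fits and 25 in none.

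**Figure D1:**
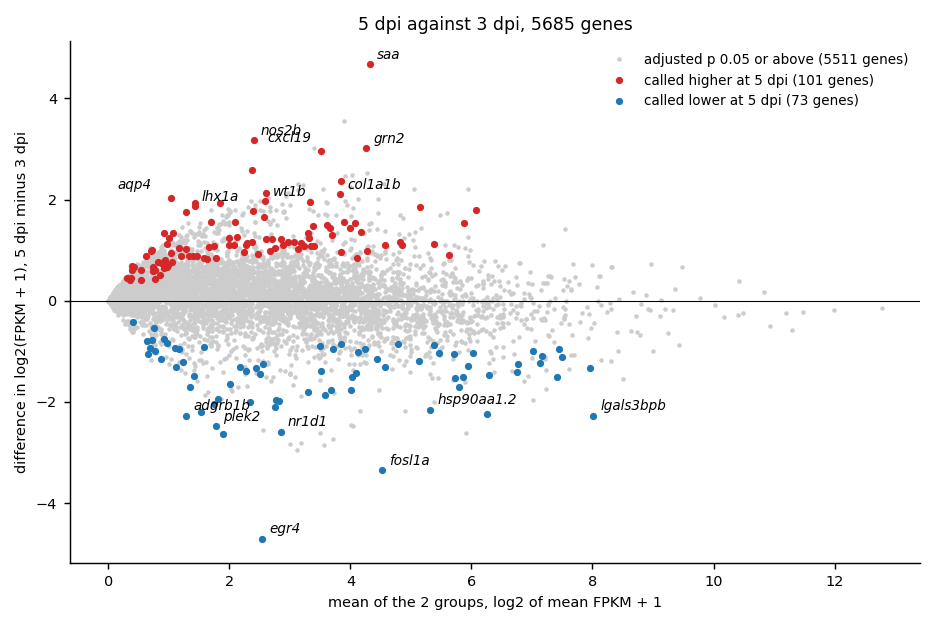
Difference in log2(FPKM + 1) between 5 and 3 dpi (vertical axis) against the mean level in log2(FPKM + 1) (horizontal axis), 1 point per gene for 5685 genes. The 101 genes called higher are red, the 73 called lower are blue, and the other 5511 are grey. The largest rise is that of saa and the largest fall that of egr4.

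The libraries at 3 dpi held 14688000 to 16233000 reads and those at 5 dpi 14227000 to 16368000, as recovered from the FPKM steps, with 18% to 21.9% of them on the listed genes. 3 libraries stood apart by marker sums, 5 dpi replicate 1, 3 dpi replicate 2 and 5 dpi replicate 3. In 5 dpi replicate 1 the summed level of 26 ovary and oocyte markers was 1330 FPKM, against 39.3 and 43.9 FPKM in the other 5 dpi samples and 24.2 to 39.1 FPKM at 3 dpi. All 26 were above 0 in that sample, and 0 to 10 of them were at 0 in the other 5, where the oocyte factor gene figla was at 0 in 4 samples. None of the 26 was called by limma or by voom (limma's test for counts, run on the recovered reads), against 3.06% of all genes called by limma. In limma 1 had an unadjusted p below 0.05, against 1103 of all 5685 genes. All 26 differences were above 0, against 61.1% of all genes, with a median of 1.33 against 0.11. Without 5 dpi replicate 1 the median of the 26 was -0.10, with 6 above 0. The summed level of 36 exocrine pancreas and liver markers was 666 FPKM in 3 dpi replicate 2 and 54.3 to 129 FPKM in the other 5 samples. Limma and voom called 0 of these, with 3 at an unadjusted p below 0.05, against the same limma shares of all genes. The 16 macrophage markers summed to 3263 to 3953 FPKM at 3 dpi and 3565 to 4294 FPKM at 5 dpi, and the 57 proximal tubule genes to 1752 to 2726 and 1016 to 3113 FPKM, the lowest in 5 dpi replicate 3, so both cell types of the kidney were present at both times.

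The gene that marks renal progenitors, lhx1a (ENSDARG00000014018, chromosome 15, 27770533 to 27777699, minus strand, GRCz11), was at its lowest at 3 dpi and at its highest at 5 dpi. It measured 0.350, 0.470 and 0.329 FPKM in replicates 1, 2 and 3 at 3 dpi and 3.42, 3.07 and 6.17 FPKM at 5 dpi. These values came from 14, 17 and 12 reads and from 120, 124 and 232 reads. Every 5 dpi sample was above every 3 dpi sample, and 5 dpi replicate 3 was the highest of all 15. Uninjured kidneys lay between them at 1.35, 1.67 and 1.06 FPKM, kidneys at 1 dpi measured 0.542, 0.660 and 0.562 FPKM, and those at 7 dpi 2.19, 2.98 and 5.20 FPKM. So the level of lhx1a was below that of uninjured kidneys at 1 and 3 dpi, above it at 5 and 7 dpi, and its values at 5 and 7 dpi overlapped. The mean rose 11-fold from 3 to 5 dpi, a log2 difference of 1.87 (SE 0.25, limma adjusted p = 0.00307). The same difference had an adjusted p of 0.0847 in the fit on the 6 samples alone, and an exact permutation test of 3 against 3 samples gave its smallest possible value, p = 0.1. Without each of the 6 samples in turn the difference was 1.62 to 2.03 and the adjusted p 0.0071 to 0.0189, and after quantile normalization it was 1.65 with an adjusted p of 0.0156.

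**Figure D2:**
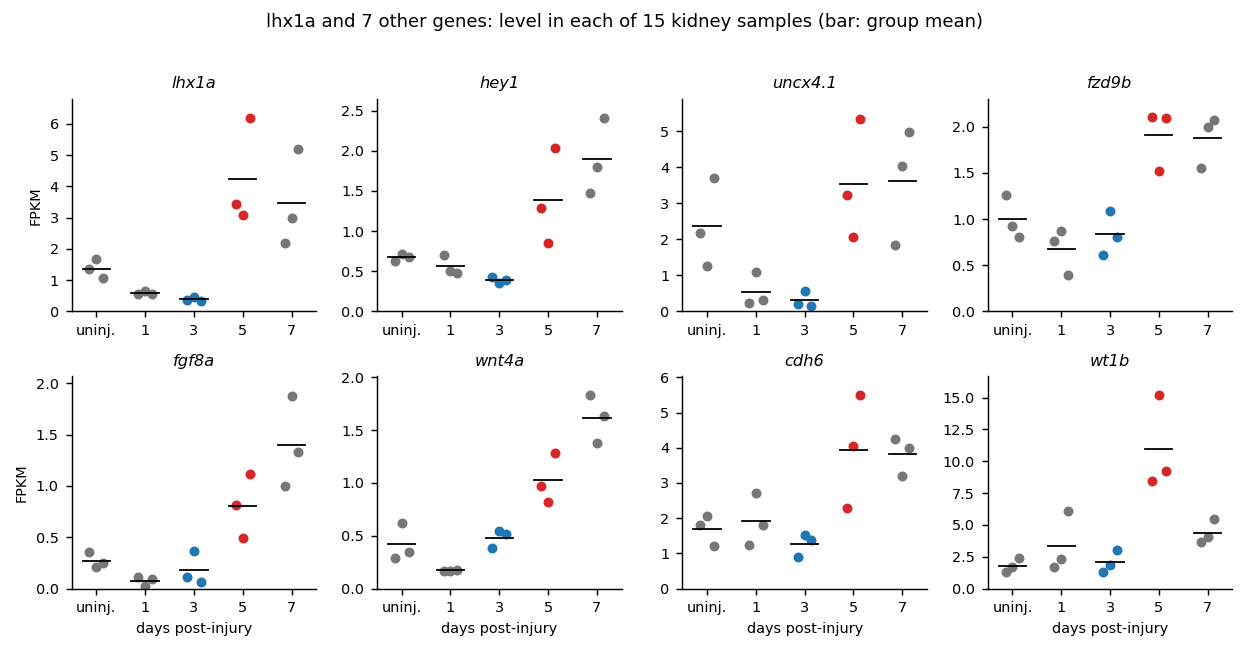
FPKM in each of the 15 samples (points) for lhx1a, hey1, uncx4.1, fzd9b, fgf8a, wnt4a, cdh6 and wt1b, by group (horizontal axis), with 3 dpi in blue, 5 dpi in red, the other groups in grey and a bar at each group mean. In all 8 panels the 3 red points lie above the 3 blue ones.

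Genes that moved with lhx1a were taken among named genes with a mean of at least 1 FPKM in at least 1 group. The 12 with the highest Pearson r with lhx1a over the 15 samples, in log2(FPKM + 1), were kept. Since the 15 samples include those at 3 and 5 dpi, this r in part restates their rise, and it is given as a description. Their r ran from 0.82 to 0.92, and over the 9 samples outside 3 and 5 dpi from 0.75 to 0.94. These 9 are among the 15 samples that chose the genes, so the second range is in part set by the choice too. All 12 were higher in every 5 dpi sample than in any 3 dpi sample, against 18.4% of all genes. Of them 4, hey1, uncx4.1, col11a1b and cdh6, were called higher, against 1.78% of all genes. The choice by r over the 15 samples fixes part of both counts. So may the minimum of 1 FPKM, which hey1, fgf8a, kif26ab, lrit3a and ush1c reached only at 5 or 7 dpi. The closest was hey1, a transcriptional repressor switched on by Notch signaling, with r = 0.92. It measured 0.427, 0.348 and 0.387 FPKM at 3 dpi and 1.29, 0.846 and 2.03 FPKM at 5 dpi, and rose by 0.76 (SE 0.17, limma adjusted p = 0.0371). Among the 5 dpi samples it was, like lhx1a, highest in replicate 3. At 7 dpi it measured 1.48, 1.80 and 2.41 FPKM. Unlike that of lhx1a, its mean was higher at 7 dpi than at 5 dpi (1.90 against 1.39 FPKM). Its call was kept without 5 dpi replicate 2 alone (adjusted p = 0.0311) and lost without each of the other 5 samples (0.0715 to 0.108) and after quantile normalization (adjusted p = 0.195).

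A second homeobox gene, uncx4.1, which encodes a paired-type homeodomain factor, had the largest difference among the called companions. It measured 0.194, 0.573 and 0.142 FPKM at 3 dpi and 3.22, 2.06 and 5.34 FPKM at 5 dpi. These values came from 6, 16 and 4 reads and from 87, 64 and 155 reads, so the 3 dpi level rests on few reads. The groups were far apart, and the order of the 5 dpi samples was that of lhx1a, with replicate 3 highest and replicate 2 lowest. The mean rose 11.7-fold, a log2 difference of 1.75 (SE 0.36, limma adjusted p = 0.0237). Uninjured kidneys measured 2.16, 1.25 and 3.70 FPKM, so the 5 dpi values overlapped those of uninjured kidneys and the 3 dpi values lay below them. The call was lost without 3 dpi replicate 1 (adjusted p = 0.0717), 3 dpi replicate 3 (0.0834), 5 dpi replicate 1 (0.054) or 5 dpi replicate 3 (0.0855).

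Adhesion and matrix genes were also among the companions of lhx1a. The cell adhesion gene cdh6, which in the mouse marks early epithelium of the forming nephron, measured 0.892, 1.51 and 1.39 FPKM at 3 dpi and 2.3, 4.04 and 5.51 FPKM at 5 dpi. It rose by 1.08 (limma adjusted p = 0.0481), a call kept without 5 dpi replicate 1 (adjusted p = 0.0269) and lost without any of the other 5 samples (0.077 to 0.155) and after quantile normalization (adjusted p = 0.173). The fibrillar collagen gene col11a1b measured 0.319, 0.656 and 0.707 FPKM at 3 dpi and 1.55, 2.33 and 2.77 FPKM at 5 dpi, and rose by 1.03 (limma adjusted p = 0.0212, and 0.0761 without 3 dpi replicate 1, 0.0834 without 5 dpi replicate 2 and 0.0789 without 5 dpi replicate 3). Quantile normalization also removed its call (limma adjusted p = 0.0684). For both genes replicate 1 was the lowest of the 5 dpi samples.

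The other 8 companions were higher in every 5 dpi sample but did not pass the test. The Wnt receptor gene fzd9b measured 0.614, 1.09 and 0.809 FPKM at 3 dpi and 2.1, 1.52 and 2.09 FPKM at 5 dpi, a difference of 0.66 (limma adjusted p = 0.0524). The growth factor gene fgf8a, whose mouse counterpart acts in the forming nephron, measured 0.110, 0.365 and 0.0604 FPKM and then 0.817, 0.491 and 1.11 FPKM, a difference of 0.61 (limma adjusted p = 0.0535). Its 3 dpi values came from 4, 12 and 2 reads. Unlike that of lhx1a, its mean was higher at 7 dpi, where it measured 1.00, 1.88 and 1.33 FPKM. The remaining 6 were ush1c, which encodes a scaffold protein of microvilli and hair bundles, the lysosomal nuclease gene dnase2b, the transcriptional repressor gene bcl6b, the kinesin family gene kif26ab, lrit3a, known from the retina, and the immunoglobulin heavy chain segment ighv4-6, whose reads may be shared with similar segments. Their differences ran from 0.42 for kif26ab to 1.81 for ighv4-6, with limma adjusted p from 0.0524 to 0.114. Like fgf8a, the companions hey1, uncx4.1, kif26ab, bcl6b, lrit3a and ush1c had a higher mean at 7 dpi than at 5 dpi. The means of fzd9b, col11a1b, cdh6, dnase2b and ighv4-6 were lower at 7 dpi.

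Over the 15 samples 39 genes had an r of at least 0.8 with lhx1a, of which 10 were called higher, against 1.78% of all genes. An r of -0.8 or lower was found for 13 genes, of which 1 was called lower, against 1.28% of all genes. Since lhx1a itself rose between the samples that define the calls, these counts are in part fixed by the choice of genes and are a description only. The median r over all genes was -0.01. To describe likeness without the samples of the comparison, r was also taken over the 9 uninjured, 1 dpi and 7 dpi samples, which fall into 3 groups. There 230 genes had an r of at least 0.8. Of these, 9 (3.91%, against 1.78% of all genes) were called higher at 5 dpi and 74 (32.2%, against 18.4%) were above 3 dpi in every 5 dpi sample, with a median difference of 0.23 against 0.11 over all genes. Of 347 genes with an r of -0.8 or lower, 2 were called lower (0.58%, against 1.28% of all genes), and their median difference was -0.07. Over these 9 samples the summed ovary and oocyte markers ran from 25.9 FPKM in 1 dpi replicate 3 to 2630 FPKM in uninjured replicate 3. Their part in the r values was not tested.

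Of a list of 72 nephron progenitor and early nephron regulators, 24 were listed and tested. Among them 4 rose (lhx1a, wt1b, hey1 and cdh6) and 0 fell, against 1.78% and 1.28% of all genes, 17 were above 0, against 61.1% of all genes, and the median difference was 0.35 against 0.11 over all genes. No gene of the list was called in the fit on the 6 samples, and after quantile normalization 2 were. The Wilms tumor factor wt1b (ENSDARG00000007990, chromosome 18, 45584283 to 45620192, minus strand), known for its role in podocytes and in the forming kidney, had the largest difference in the list. It measured 1.27, 1.87 and 3.01 FPKM at 3 dpi and 8.44, 15.2 and 9.22 FPKM at 5 dpi. At 3 dpi it was within or just above the uninjured range of 1.27 to 2.40 FPKM, and every 5 dpi sample was above all 12 other samples. It rose 5.34-fold, by 1.97 on the log2 scale (SE 0.36, limma adjusted p = 0.0149), with adjusted p = 0.055 without 3 dpi replicate 1 and 0.0606 without 5 dpi replicate 2. Its paralog wt1a measured 6.54, 12.5 and 10.6 FPKM at 3 dpi and 10.7, 11.5 and 15.9 FPKM at 5 dpi, groups that overlap (limma adjusted p = 0.421). The other podocyte genes tested also missed the threshold, with a difference of 0.38 for the basement membrane collagen gene col4a5 and 0.05 for the transcription factor gene tcf21. The interstitial and nephron regulator osr2 measured 3.94, 7.73 and 6.45 FPKM and then 9.41, 11.2 and 9.27 FPKM, against 8.46 to 9.54 FPKM in uninjured kidneys (limma adjusted p = 0.125). The FGF target gene etv5b was the member lower in every 5 dpi sample, at 22.4, 24.6 and 37.2 FPKM and then 18.6, 17.9 and 9.31 FPKM (limma adjusted p = 0.161).

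In the Wnt pathway 20 of 76 genes were tested. Of these 1 rose and 0 fell, against 1.78% and 1.28% of all genes, and 13 were above 0, against 61.1%. The median difference of 0.10 was close to that of all genes. The gene that rose was notum1a, a secreted enzyme that inactivates Wnt ligands and is itself a target of Wnt signaling. It measured 0.262, 0.326 and 0.324 FPKM at 3 dpi and 1.5, 1.53 and 2.68 FPKM at 5 dpi, with no overlap, and rose by 1.13 (limma adjusted p = 0.040). The 3 dpi values came from 8, 9 and 9 reads. Uninjured replicate 1 also measured 1.53 FPKM, and the call was lost without any 1 of the 6 samples (adjusted p 0.060 to 0.130). It was also lost after quantile normalization (limma adjusted p = 0.0662). The ligand wnt4a measured 0.385, 0.547 and 0.513 FPKM at 3 dpi and 0.972, 0.818 and 1.29 FPKM at 5 dpi. The groups did not overlap and the mean was 2.13 times as high, but the difference of 0.45 missed the threshold (SE 0.13, limma adjusted p = 0.0707). Across the series wnt4a went from 0.167 to 0.176 FPKM at 1 dpi to 1.38 to 1.83 FPKM at 7 dpi, a difference of 1.15 between these groups (limma adjusted p = 0.0013). The nuclear effector lef1 measured 0.169, 0.749 and 0.372 FPKM and then 1.81, 0.630 and 0.766 FPKM, with 5 dpi replicate 1 apart from the other 2 (limma adjusted p = 0.412). That is the sample with high ovary markers, and the difference of 0.51 was 0.27 without it and 0.23 with the ovary markers as a covariate. For axin2, a common readout of Wnt signaling, the values at 3 dpi of 1.96, 1.94 and 2.67 FPKM overlapped those at 5 dpi of 3.50, 2.49 and 2.66 FPKM.

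Of 9 prostaglandin genes tested out of 37, limma and voom called 0, against 3.06% of all genes called by limma. In limma 2 had an unadjusted p below 0.05, ptgis and ptgs2a, against 1103 of all 5685 genes. The cyclooxygenase gene ptgs2a, which makes the precursor of prostaglandin E2, measured 0.597, 1.12 and 0.285 FPKM at 3 dpi and 0.889, 1.65 and 1.13 FPKM at 5 dpi (difference 0.43, limma adjusted p = 0.217). The prostacyclin synthase gene ptgis measured 1.04, 1.69 and 1.14 FPKM and then 2.82, 1.70 and 2.31 FPKM (difference 0.51, limma adjusted p = 0.127). The exporter gene abcc4 was lower in every 5 dpi sample, at 27.0, 47.6 and 32.5 FPKM and then 19.4, 23.5 and 16.7 FPKM, and did not pass either (limma adjusted p = 0.271).

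**Figure D3:**
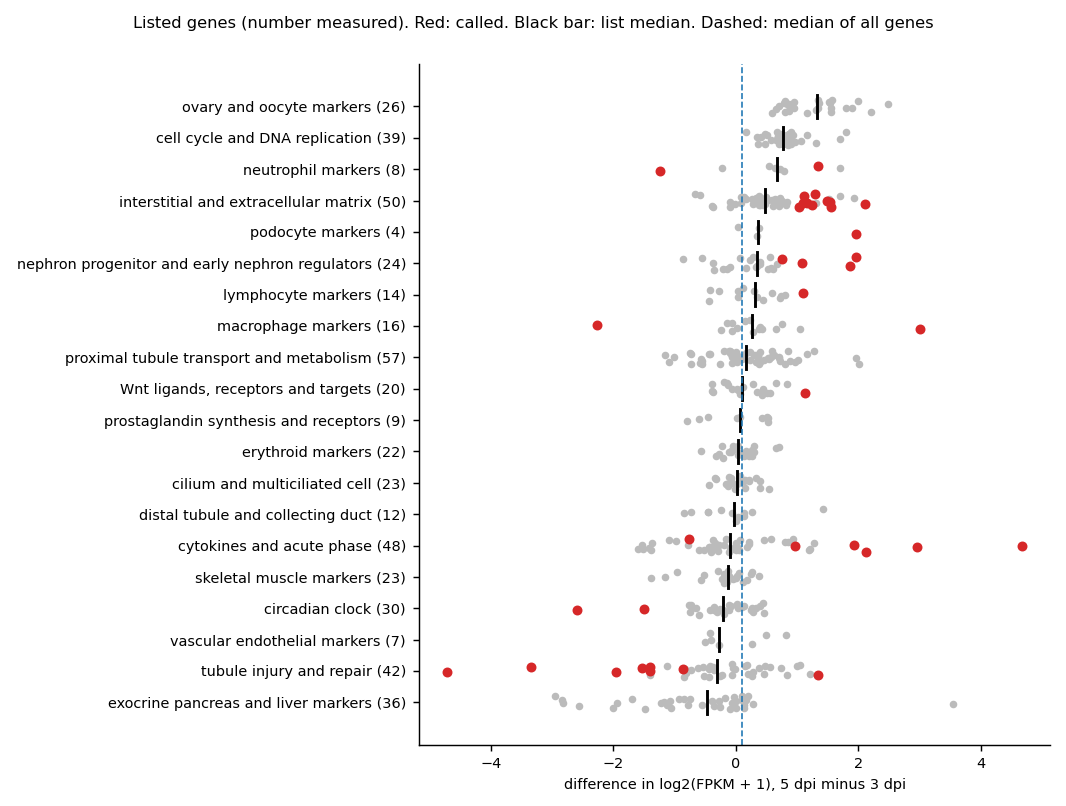
Difference in log2(FPKM + 1) between 5 and 3 dpi for every tested member (points) of 20 gene lists, with called members in red, the list median as a black bar and the median over all genes, 0.11, as a dashed line. The 10 called matrix genes lie above the line and 7 of the 8 called injury genes below it.

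Interstitial and extracellular matrix genes, which include the markers of RICs, gave the largest number of calls among the 20 lists. Of 93 genes 50 were tested, and 10 rose and 0 fell, against 1.78% and 1.28% of all genes. In 27 of the 50 every 5 dpi sample was above every 3 dpi sample, against 18.4% of all genes, 43 were above 0, and the median difference was 0.48 against 0.11. The count was 0 in the fit on the 6 samples and 7 after quantile normalization. Without 1 sample it was 2 (3 dpi replicate 1), 10 (3 dpi replicate 2), 5 (3 dpi replicate 3), 8 (5 dpi replicate 1), 3 (5 dpi replicate 2) and 3 (5 dpi replicate 3). The fibrillar collagen gene col1a1b measured 3.07, 9.39 and 5.46 FPKM at 3 dpi and 17.6, 32.2 and 34.4 FPKM at 5 dpi. All 5 dpi samples were above all 12 others, and the mean rose 4.70-fold, by 2.11 on the log2 scale (SE 0.42, limma adjusted p = 0.020). It was not called without 3 dpi replicate 1, 3 dpi replicate 3, 5 dpi replicate 2 or 5 dpi replicate 3 (adjusted p 0.0621 to 0.0834). Its partner chain col1a2 went the same way, from 4.99, 15.7 and 12.4 FPKM to 20.3, 36.2 and 39.0 FPKM, and missed the threshold (difference 1.52, limma adjusted p = 0.0828).

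Among the matrix genes, col5a2a and mmp14b were called without any 1 of the 6 samples. The collagen gene col5a2a measured 3.36, 7.88 and 4.70 FPKM at 3 dpi and 12.6, 17.6 and 18 FPKM at 5 dpi (difference 1.48, limma adjusted p = 0.0122). The membrane protease gene mmp14b, which cuts collagen and activates other proteases, measured 14.6, 22.9 and 16.4 FPKM and then 39.8, 46.7 and 36.8 FPKM (difference 1.17, limma adjusted p = 0.0107). For both the groups were well apart, and 3 dpi replicate 2 was the highest of its group. The fibronectin gene fn1b measured 5.82 to 8.19 FPKM at 3 dpi and 17.6 to 21.9 FPKM at 5 dpi, and its paralog fn1a 20.1 to 34.6 and 49.2 to 65.3 FPKM. The other risers were col12a1a, col5a1 and col11a1b, the matricellular gene postnb and the proteoglycan gene dcn, with differences of 1.03 to 1.55. Of these 7 genes, fn1b lost its call without 3 dpi replicate 1 (adjusted p = 0.0509), and the other 6 did so without any of 3 dpi replicate 1, 5 dpi replicate 2 and 5 dpi replicate 3 (0.0551 to 0.136). Without 3 dpi replicate 3, fn1a (0.0559), col5a1 (0.0798), postnb (0.104) and dcn (0.125) were not called either, and without 5 dpi replicate 1 neither were postnb nor dcn (both 0.0819). Decorin, encoded by dcn and used as a marker of RICs, measured 11.6, 21.6 and 13 FPKM at 3 dpi and 31.4, 33.6 and 34.3 FPKM at 5 dpi (limma adjusted p = 0.0454), and kept its call without 3 dpi replicate 2 but not without any of the others (0.0819 to 0.136). The limma adjusted p of this RIC marker was 0.0657 after quantile normalization. Another marker gene of these cells, emilin1a, measured 17.4, 19.7 and 17.6 FPKM and then 16.9, 17.4 and 24.9 FPKM, so the matrix genes did not all move (limma adjusted p = 0.880). The marker fabp10a was spread widely at 5 dpi, at 154, 19.7 and 32.6 FPKM, against 85.4, 74.2 and 54.8 FPKM at 3 dpi (limma adjusted p = 0.655).

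The largest called rise was that of an acute-phase gene, saa. Of 64 cytokine and acute-phase genes 48 were tested, 5 rose (saa, cxcl19, c3a.1, ptx3a and il6) and 1 fell (il11b), against 1.78% and 1.28% of all genes, and 21 were above 0, with a median of -0.10, so the list as a whole did not lie above the other genes. The first of them, saa (ENSDARG00000045999, chromosome 7, 12688763 to 12703714, plus strand), encodes the acute-phase protein serum amyloid A. It measured 3.39, 2.98 and 1.43 FPKM at 3 dpi and 67.0, 216 and 46.6 FPKM at 5 dpi, and by 7 dpi it was back at 8.16, 11.7 and 1.49 FPKM. The 5 dpi samples were above all 12 others, with replicate 2 more than 3 times the next. It rose 42.3-fold, by 4.67 on the log2 scale (SE 0.63, limma adjusted p = 0.00307), and was called without any 1 of the 6 samples. Of the 48 cytokine and acute-phase genes, 2 were called higher and 1 lower after quantile normalization.

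Large rises were also seen in nos2b, the inducible nitric oxide synthase, and in the chemokine gene cxcl19. For nos2b the values were 0.425, 1.37 and 0.355 FPKM at 3 dpi, 14.2, 23.4 and 8.04 FPKM at 5 dpi and 0.343, 2.81 and 0.189 FPKM at 7 dpi, a rise of 3.17 from 3 to 5 dpi (limma adjusted p = 0.00419). For cxcl19 they were 2.03, 4.40 and 3.01 FPKM, then 32.1, 35.6 and 24.3 FPKM, then 6.60, 19 and 10.9 FPKM, a rise of 2.96 (limma adjusted p = 0.00682). At 7 dpi nos2b overlapped its 3 dpi values, while cxcl19 lay above all of its 3 dpi values. Both were called without any 1 of the 6 samples. The cytokine gene il6 measured 0, 0.196 and 0.291 FPKM at 3 dpi and 1.72, 1.23 and 0.942 FPKM at 5 dpi (difference 0.98, limma adjusted p = 0.0155, and 0.0564 without 3 dpi replicate 1). The complement gene c3a.1 and the pentraxin gene ptx3a were highest in 5 dpi replicate 2, at 20.6 and 11.8 FPKM, and neither was called once any 1 sample was left out. After quantile normalization they were not called either (limma adjusted p = 0.0625 and 0.105). Uninjured replicate 1 measured 11.4 FPKM of c3a.1, above 5 dpi replicates 1 and 3 at 8.03 and 7.99 FPKM. Of the IL-6 family, il11b fell from 1.12, 2.16 and 1.14 FPKM to 0.297, 0.413 and 0.610 FPKM (limma adjusted p = 0.0156, and 0.0551 without 5 dpi replicate 2), opposite in direction to il6. Its paralog il11a went from 7.98, 14.6 and 8.14 FPKM to 1.83, 2.47 and 3.77 FPKM and just missed the threshold (limma adjusted p = 0.0558). The values of il1b, a cytokine of activated macrophages, were 2.29, 2.64 and 2.25 FPKM and then 7.29, 9.76 and 5.32 FPKM, without overlap and short of the threshold (limma adjusted p = 0.0612).

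Among immune cell markers, 2 of 16 macrophage, 2 of 8 neutrophil and 1 of 14 lymphocyte genes were called, against 3.06% of all genes. The progranulin family gene grn2 rose from 6.53, 8.35 and 2.76 FPKM to 42.4, 74.6 and 41.2 FPKM (difference 3.01, limma adjusted p = 0.0124, and 0.0507 without 5 dpi replicate 2). The galectin-3-binding protein gene lgals3bpb fell from 316, 566 and 853 FPKM to 132, 71.7 and 140 FPKM (difference -2.27, limma adjusted p = 0.0207). These were the only calls among 16 macrophage markers, and the general macrophage gene mpeg1.1 measured 72.3 to 78.3 FPKM at 3 dpi and 77.7 to 130 FPKM at 5 dpi. Of 8 neutrophil markers, pnp5a, a nucleoside phosphorylase gene, rose (difference 1.35, limma adjusted p = 0.0454) and cfl1l, a cofilin-like actin regulator gene, fell (difference -1.24, limma adjusted p = 0.0246). The neutrophil myeloperoxidase gene mpx measured 388, 434 and 337 FPKM and then 481, 649 and 821 FPKM, wholly higher and not called (limma adjusted p = 0.0708). In 5 of the 8 neutrophil markers every 5 dpi sample was above every 3 dpi sample, against 18.4% of all genes, and their median difference was 0.68 against 0.11. The part of this in the rises of the cytokine and acute-phase genes was not tested. Among 14 lymphocyte markers the regulatory T cell factor foxp3a rose from 1.59, 2.52 and 2.84 FPKM to 6.74, 4.66 and 6.91 FPKM (difference 1.1, limma adjusted p = 0.020). Its 5 dpi values were above all 12 other samples, of which the 7 dpi samples reached 2.65 FPKM. Calls were lost for lgals3bpb without 3 dpi replicates 2 or 3 or 5 dpi replicate 2 (adjusted p 0.0547 to 0.0877), for cfl1l without 3 dpi replicates 1 or 2 or 5 dpi replicates 2 or 3 (0.0674 to 0.0967), and for foxp3a without 3 dpi replicate 1 or 5 dpi replicates 1 or 3 (0.0547 to 0.0719). The call of pnp5a was kept without 3 dpi replicate 2 alone (0.063 to 0.146 without the others). After quantile normalization pnp5a, cfl1l and foxp3a were not called (limma adjusted p = 0.0877, 0.0657 and 0.0503).

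Other large rises were in genes of varied roles. The water channel gene aqp4 had 0 reads in all 3 samples at 3 dpi and 63, 63 and 28 reads at 5 dpi, or 4.25, 3.69 and 1.76 FPKM. Against a floor of 3 reads over the 3 dpi group it was at least 51.2-fold higher (limma adjusted p = 0.00419), and at 7 dpi it was down to 0.119 to 0.179 FPKM. The hyaluronan receptor gene cd44a rose from 0.188, 0.173 and 0.515 FPKM to 2.28, 3.60 and 1.3 FPKM (difference 1.35, limma adjusted p = 0.0183). It lost its call without 3 dpi replicate 1, 3 dpi replicate 2 or 5 dpi replicate 2 (adjusted p 0.0527 to 0.0638). The monooxygenase-like gene moxd1 went from 13.7, 26.6 and 13.3 FPKM to 49.3, 82.9 and 64.5 FPKM (limma adjusted p = 0.0264), and the immune receptor-like gene dicp2.2, of a multigene family whose reads may be shared, from 0.241, 2.67 and 0.635 FPKM to 10.5, 15.9 and 7.29 FPKM (limma adjusted p = 0.0444). Without 3 dpi replicates 1 or 3 or 5 dpi replicates 2 or 3 neither of these was called (adjusted p 0.0789 to 0.152), and dicp2.2 was not called without 5 dpi replicate 1 either (0.0893). Quantile normalization removed the call of dicp2.2 too (limma adjusted p = 0.0719).

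The strongest single change in the comparison was a fall. The immediate-early transcription factor gene egr4 (ENSDARG00000077799, chromosome 23, 45844302 to 45846431, plus strand) measured 37.0, 18.3 and 33 FPKM at 3 dpi, from 1175, 525 and 954 reads, and 0.0360, 0.125 and 0.201 FPKM at 5 dpi, from 1, 4 and 6 reads. The mean fell 244-fold, and the 5 dpi values lay in the range of the uninjured kidneys, 0.0339 to 0.396 FPKM, after 44.3 to 91.3 FPKM at 1 dpi. The difference was -4.71 (SE 0.29, limma adjusted p = 4.22e-06), and egr4 was called in the 6-sample fit too.

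The AP-1 genes fosl1a and fosl1b, which encode the 2 forms of Fra-1, fell with it. The values of fosl1a were 51.7, 98.7 and 66.6 FPKM at 3 dpi and 4.67, 8.31 and 5.37 FPKM at 5 dpi, an 11.8-fold fall (difference -3.35, limma adjusted p = 0.000394). Those of fosl1b were 5.51, 8.58 and 3.79 FPKM and then 0.379, 1.12 and 0.777 FPKM (difference -1.95, limma adjusted p = 0.00437). The forms differed at 1 dpi, where fosl1a was at 144, 148 and 291 FPKM, above its 3 dpi level, and fosl1b at 0.343, 0.0674 and 0.568 FPKM, so fosl1b was highest at 3 dpi.

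Of 68 tubule injury and repair genes 42 were tested, 1 rose (cd44a) and 7 fell, against 1.78% and 1.28% of all genes, 15 were above 0 and the median difference was -0.31 against 0.11 over all genes. Besides egr4, fosl1a and fosl1b, the fallers were fosab, the stress factor gene atf3, the cell cycle inhibitor gene cdkn1a and mdm2, the last of these encoding the inhibitor of p53. For atf3 the values were 64.7, 108 and 95.7 FPKM at 3 dpi and 28.3, 34.5 and 26.8 FPKM at 5 dpi (difference -1.53, limma adjusted p = 0.0114), against 5.18 to 8.39 FPKM in uninjured kidneys. For cdkn1a they were 20.6, 16.6 and 15 FPKM and then 4.56, 7.92 and 5.70 FPKM (difference -1.40, limma adjusted p = 0.0122), against 1.6 to 2.37 FPKM in uninjured kidneys. Neither had come back to the uninjured range at 5 dpi, unlike egr4. In the 6-sample fit 2 genes of this list were called, egr4 and fosl1a, and all of the 7 fallers but mdm2 were called without any 1 of the 6 samples. The call of mdm2 was lost without 3 dpi replicates 1 or 2 or 5 dpi replicate 3 (adjusted p 0.0547 to 0.0647).

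**Figure D4:**
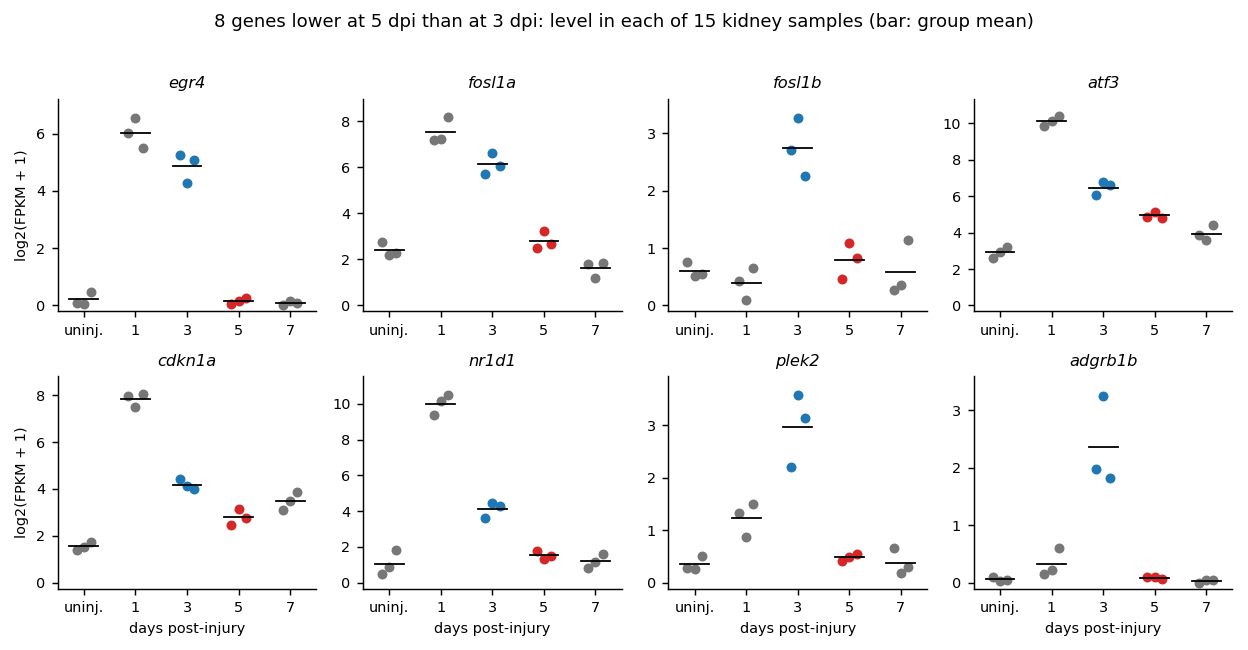
Level in log2(FPKM + 1) in each of the 15 samples (points) of 8 genes called lower at 5 dpi, by group (horizontal axis), with 3 dpi in blue, 5 dpi in red and a bar at each group mean. For egr4, plek2 and adgrb1b the red points sit near 0, while atf3 at 5 dpi stays above its uninjured level.

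The other large falls covered several roles. The pleckstrin gene plek2, a regulator of the actin skeleton, went from 3.58, 10.9 and 7.76 FPKM to 0.329, 0.408 and 0.460 FPKM (difference -2.48, limma adjusted p = 0.00128). The adhesion receptor gene adgrb1b went from 2.95, 8.52 and 2.52 FPKM to 0.0641, 0.0650 and 0.0399 FPKM (difference -2.27, limma adjusted p = 0.0014). Both had their highest level of the series at 3 dpi. The chaperone gene hsp90aa1.2 went from 88.0, 66.9 and 86.2 FPKM to 11, 29.5 and 15.2 FPKM (difference -2.15, limma adjusted p = 0.0454), and its call was lost without any 1 of the 6 samples (0.0569 to 0.126). Quantile normalization removed this call as well (limma adjusted p = 0.0625). Other chaperone genes, chosen after their values were seen, were also called lower, DNAJA4 by -1.76, dnaja1 by -1.16 and HSPA8 by -0.96. The call of dnaja1 was kept without 5 dpi replicate 2 alone (adjusted p = 0.0477, and 0.0805 to 0.109 without each of the others), and that of HSPA8 was lost without 3 dpi replicate 3 (0.0506) or 5 dpi replicate 2 (0.0505). Of the remaining named falls, the RNA-binding gene cpeb1a, the SNARE gene snap25a and the cytochrome P450 gene cyp2aa11 had differences of -1.98 to -2.05, and each was highest at 3 dpi among the 5 group means. Of these 3, cpeb1a lost its call without 5 dpi replicates 1 or 3 (adjusted p 0.0508 and 0.0618), and snap25a without 3 dpi replicates 2 or 3 or 5 dpi replicates 1 or 2 (0.0633 to 0.0959).

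The clock repressor genes nr1d1 and nr1d4b fell as well. They were the only calls among 30 circadian clock genes, against 3.06% of all genes. Of the 30, 10 were lower in every 5 dpi sample and 0 higher, against 9.55% and 18.4% of all genes. The values of nr1d1 were 11.2, 21.2 and 18.2 FPKM at 3 dpi and 2.40, 1.52 and 1.77 FPKM at 5 dpi (difference -2.59, limma adjusted p = 0.00437), after 663 to 1435 FPKM at 1 dpi. Those of nr1d4b were 2.13, 4.55 and 3.94 FPKM and then 0.622, 0.492 and 0.580 FPKM, a call lost without 3 dpi replicates 2 or 3 or 5 dpi replicates 2 or 3 (adjusted p 0.0618 to 0.0824). The time of day of each collection is not given in the sources used here, and its part in these differences was not tested.

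Cell cycle and DNA replication genes were higher at 5 dpi than at 3 dpi, without a call for any single gene. Of 103 genes 39 were tested, and limma called 0, against 3.06% of all genes. All 39 were above 0, against 61.1% of all genes, with a median difference of 0.77 against 0.11 over all genes. The lowest limma adjusted p was 0.0636, for smc4. In limma 18 of the 39 had an unadjusted p below 0.05, against 1103 of all 5685 genes. Voom on the recovered reads called 0 as well, with 16 below 0.05. In 33 of the 39 genes every 5 dpi sample was above every 3 dpi sample, against 18.4% of all genes. The mean log2(FPKM + 1) of the list in the 3 dpi samples was 3.1, 3.18 and 3.11, and in the 5 dpi samples 4.46, 3.65 and 3.69. Uninjured kidneys had 4.85, 3.83 and 4.89, those at 1 dpi 2.86 to 4.35, and those at 7 dpi 3.88 to 4.25. So the 5 dpi values lay above those at 3 dpi but not above the uninjured range. Uninjured replicates 1 and 3 also had high ovary markers, with a mean log2(FPKM + 1) of 5.0 and 5.53 against 0.53 in replicate 2. The highest of the 5 dpi samples, replicate 1, is the one with high ovary markers. With the ovary markers as a covariate the median difference was 0.54 and limma called 0. Without that sample the median difference was 0.63 against 0.03 over all genes, 37 of the 39 were above 0, and 33 did not overlap upward, against 23.9% of all genes. In that fit 8 instead of 18 had an unadjusted p below 0.05, against 1011 of all 5685 genes. As an example chosen after its values were seen, the mitotic kinase gene cdk1 measured 42.8, 38.4 and 36.4 FPKM at 3 dpi. At 5 dpi it measured 56.6, 55.5 and 57.2 FPKM (difference 0.52, limma adjusted p = 0.291). The mitotic kinesin gene kif20a measured 4.05, 4.86 and 4.65 FPKM and then 8.98, 8.48 and 10.4 FPKM (difference 0.90, limma adjusted p = 0.069). The condensin gene smc4 measured 11.5, 13.2 and 15.7 FPKM and then 19.8, 28.7 and 26.8 FPKM (difference 0.85). For smc4 replicate 1 was the lowest of the 5 dpi samples, while in the mean of the whole list it was the highest.

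**Figure D5:**
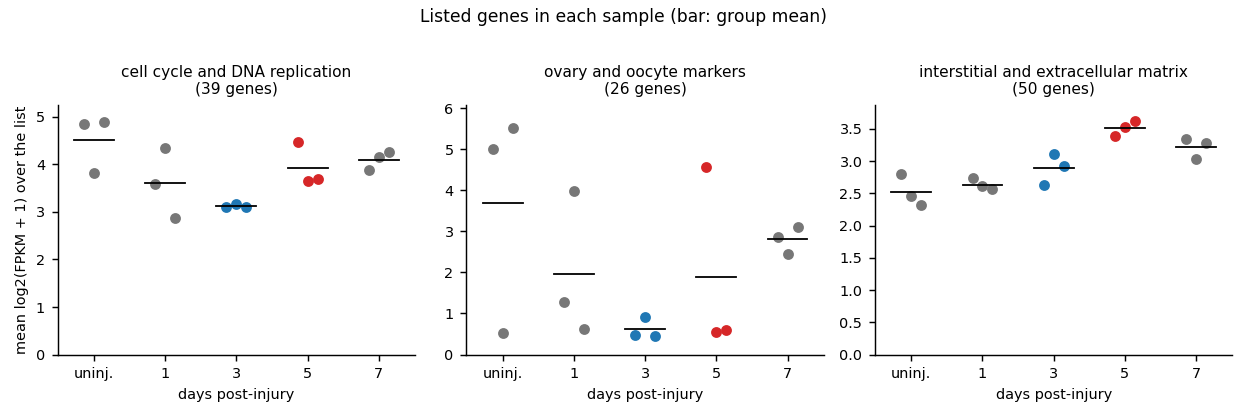
Mean log2(FPKM + 1) per sample (points) over the cell cycle list (39 genes), the ovary list (26 genes) and the matrix list (50 genes), by group, with 3 dpi in blue, 5 dpi in red and a bar at each group mean. For the cell cycle and matrix lists the 3 red points lie above the 3 blue ones, and for the ovary list 5 dpi replicate 1 alone is high, at 4.56 against 0.55 and 0.59.

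Differentiated tubule genes gave no calls between 3 and 5 dpi, which for lists of this size is near the 3.06% called among all genes. Of 57 proximal tubule genes limma and voom called 0, and 9 had an unadjusted p below 0.05 in limma, against 1103 of all 5685 genes. Among the 57, 35 were above 0, against 61.1% of all genes, and the median was 0.17 against 0.11. Of 12 distal tubule and collecting duct genes limma and voom called 0, 1 had an unadjusted p below 0.05 in limma, and the median was -0.02. The cation transporter gene slc22a2 measured 297, 192 and 355 FPKM at 3 dpi and 327, 277 and 71.1 FPKM at 5 dpi, so 5 dpi replicate 3 was low and the other 2 overlapped with 3 dpi (limma adjusted p = 0.609). The enzyme gene acy1, abundant in proximal tubule, measured 23.5, 21.0 and 19.3 FPKM and then 32, 32.1 and 15.1 FPKM, with the same sample low (limma adjusted p = 0.648). That sample, 5 dpi replicate 3, was also the 5 dpi sample with the highest lhx1a, hey1 and uncx4.1. Its summed level of the 57 proximal tubule genes was 1016 FPKM, against 2744 and 3113 FPKM in the other 5 dpi samples. The part of this in the level of lhx1a was not tested.

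Placed on the whole time course, the genes called higher mostly peaked at 5 dpi and the genes called lower mostly came down from a peak at 3 or 1 dpi. Of the 101 genes called higher, 89 (88.1%) had their highest group mean at 5 dpi, against 13.8% of all genes, and 6 at 7 dpi. For 95 of the 101 the 5 dpi mean was above all 3 uninjured samples, against 1874 of all 5685 genes. At 3 dpi 33 of the 101 (32.7%) had been above all uninjured samples and 27 (26.7%) below, against 30.5% and 36.7% of all genes. Of the 73 called lower, 42 (57.5%) had their highest mean at 3 dpi, against 11.2% of all genes. Another 30 (41.1%) had it at 1 dpi, against 31.7% of all genes, so the share at 1 dpi was nearer to that of all genes. At 3 dpi 72 of the 73 were above all uninjured samples, against 30.5% of all genes. At 5 dpi 28 of the 73 (38.4%) were in the uninjured range, against 39.6% of all genes, so this share was close to that of all genes. Another 34 (46.6%) were still above that range, against 1874 of all 5685 genes. The other 11 (15.1%) were below it, against 27.4% of all genes. The comparison that chose these genes fixes part of this pattern, and it is given as a description.

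The contrast of 7 with 1 dpi uses none of the 3 and 5 dpi samples, although the fit that called the genes took part of its error estimate from them. In that contrast 36.3% of all genes were called, 12.1% at a greater and 24.3% at a smaller level at 7 dpi. Of the 101 genes called higher at 5 dpi, 19 (18.8%) were higher at 7 than at 1 dpi and 1 was lower, and 78 (77.2%) were above 0, against 47.8% of all genes. Among the 73 fallers, 40 (54.8%) were lower at 7 than at 1 dpi and 2 higher, with a median difference of -0.79 against -0.04 over all genes. The marker lhx1a was among those higher at 7 dpi, by 1.43 (limma adjusted p = 0.00953). Ovary and oocyte markers summed to 319, 255 and 415 FPKM in 7 dpi replicates 1, 2 and 3. In 1 dpi replicates 1, 2 and 3 they summed to 70.05, 908 and 25.9 FPKM. The part of this in the 7 against 1 dpi differences was not tested.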

How the data were processed

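Kidneys were sequenced in 5 groups of 3 samples, assigned from the titles. The authors deposited FPKM per gene, made with StringTie 1.3.3b, featureCounts 1.5.0-p3 and DESeq2 on GRCz11 according to the submitters' processing notes. The aligner is not given in the sources used here. The table lists 5686 genes, a part of the genome, so counts refer to listed genes. The authors also deposited a group code for each gene, a value of another kind whose meaning is not stated, which was not used. Columns of the authors' comparisons were not used.

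Differences were fitted on log2(FPKM + 1) with limma 3.58.1 in R 4.3.3 (two-sided moderated tests, lmFit then trended eBayes, Benjamini-Hochberg adjustment over 5685 genes) and tested on simulated data. All 15 samples entered the fit, a choice made knowing that lhx1a passed there and not with 6 samples. Gene lists and members were chosen with earlier results of these data known. Named genes were lhx1a and genes the study names, the 12 largest called rises and falls without overlap, the 12 genes most like lhx1a, and up to 4 called members per list, of which 1 gene is not reported here. The genes most like lhx1a needed a mean of at least 1 FPKM in at least 1 group. Other genes of a list are named as examples and were chosen after their values were seen. For 99.95% of the genes the values of the 15 samples could be written as whole reads (tolerance 0.02 reads). The scale of the library totals was set from the annotated spans of 12 microRNA genes, of which 12 gave the same total. Alternatives were the 6 samples alone, a replicate block, no filter or a mean FPKM minimum of 1, the pseudocount 0.1, quantile and median-of-ratios scaling, no trend, ovary markers as a covariate, and each sample left out. Limma-voom on the recovered reads, and the cell cycle list without 5 dpi replicate 1, were added after seeing the data. The labels do not say whether replicate numbers pair samples, and the main fit did not pair them.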

Additional observations from a re-analysis of the deposited data

How the results depend on the processing

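Fitted on the 6 samples at 3 and 5 dpi alone, limma called 4 genes, 1 higher and 3 lower, with 3 of the 36 called list members left and a difference for lhx1a of 1.87 that missed the threshold (adjusted p = 0.0847). With median-of-ratios scaling 67 genes were higher and 135 lower, and with quantile normalization 38 were higher. With 1 sample left out, the counts were 62 to 121 in all, 25 to 80 higher and 29 to 58 lower, and 17 to 30 list members were called. Of the genes called higher at 5 dpi, 29 instead of 19 were higher at 7 than at 1 dpi after quantile normalization. The cause of these shifts was not tested. With the replicate number as a block, 148 genes were called, 83 higher and 65 lower, 132 of them among the 174, and lhx1a kept its call (adjusted p = 0.00616). Deviations of same-numbered 3 and 5 dpi samples from their group means correlated at 0.11, -0.18 and 0.09. The labels do not say whether the numbers pair the samples, and these values cannot settle it. Limma-voom called 119 genes, 114 of them among the 174. Among 53 named genes besides lhx1a, 653 of 838 gene and setting pairs kept direction and side of the threshold, 176 lost the call and 5 gained one. The direction turned in 4 pairs of genes that were not called. These were emilin1a with median-of-ratios scaling (-0.076) and 3 genes with 1 sample left out, where the differences ran from -1.44 to 0.016 for fabp10a, from -0.081 to 0.19 for emilin1a and from -0.95 to 0.14 for slc22a2, turning without 5 dpi replicate 2 for fabp10a and without 5 dpi replicate 3 for emilin1a and slc22a2. Depth limits genes at few reads, such as egr4 at 5 dpi and aqp4, uncx4.1, fgf8a and notum1a at 3 dpi, and 3 samples per group limit every call.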
